A study of Mus musculus with 6 samples.

Results

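The 10 genes described here encode the core of MHC class I and class II antigen presentation: H2-K1, H2-D1, B2m, Tap1, Tap2 and Tapbp for class I, and H2-Aa, H2-Ab1, H2-Eb1 and Cd74 for class II. They were chosen by gene symbol, and all 10 were found among the 24421 symbols of the count table. All 10 also passed the filter on low counts, which left 15988 genes to test. RNA came from cochlear explants of wild-type mice at postnatal day 2, whose strain the labels do not give. After 12 h in culture, the neomycin group spent 6 h with neomycin at 1 mM, an aminoglycoside antibiotic that kills hair cells (HCs). Culture then went on for 5 days in the presence of EdU, a label of newly made DNA, at 10 μM. There were 3 control and 3 neomycin samples, and each was a pool of 6 to 8 cochleae. The control group is taken as explants without neomycin from its sample titles and treatment tags, although the growth text of the labels gives neomycin for all 6 samples. The design text of the series describes a different cell model from these samples and was not used. As a model, an explant has no blood supply and receives no circulating cells. Its immune cells thus came from those in the tissue at dissection, and whether their number changed in culture was not tested. The modiolus, the tectorial membrane and the anlage of the stria vascularis had been taken off.

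MHC class I molecules show peptides from inside the cell at the surface of nearly all nucleated cells, where cytotoxic T cells read them. A heavy chain (H2-K1, H2-D1) pairs with the light chain beta-2-microglobulin (B2m). The TAP transporter (Tap1 with Tap2) carries peptides into the endoplasmic reticulum, and tapasin (Tapbp) holds the empty heavy chain beside it while a peptide is loaded. Class II molecules are made mainly by professional antigen-presenting cells, that is macrophages, dendritic cells and B cells. There an alpha and a beta chain (H2-Aa with H2-Ab1, and the beta chain H2-Eb1) travel with the invariant chain (Cd74) to endosomes and present peptides from outside the cell. Interferon raises class I genes through NLRC5 and IRF1, and interferon gamma raises class II genes through CIITA. Macrophages live in the cochlea and gather where HCs have died.

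Of the members, 8 lie within 1351.6 kb of chromosome 17 (17:33915899-35267499 on GRCm38, the assembly also called mm10) and B2m lies on chromosome 2. Promoter sequences of 7 members were in the RefSeq table for GRCm38.p6, and those of the other three were not used here. The windows below are printed because 5 of these 7 promoters shared an arrangement of motifs that is the known landing place of the CIITA and NLRC5 complexes. Each is written 5′ to 3′ on the strand of its gene. Capitals mark TGANG (the X2 box core) followed after 20 to 22 bases by ATTGG (the Y box), GGGATTCCC (a site of the NF-kappaB type), and GAANNGAAA or GAAANNGAAA (sites of the interferon response type, which may stand on either strand).
H2-K1 (17:34000351-34000465, minus strand): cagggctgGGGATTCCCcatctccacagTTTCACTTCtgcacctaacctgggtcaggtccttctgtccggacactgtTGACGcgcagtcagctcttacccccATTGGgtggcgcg
H2-D1 (17:35262916-35263030, plus strand): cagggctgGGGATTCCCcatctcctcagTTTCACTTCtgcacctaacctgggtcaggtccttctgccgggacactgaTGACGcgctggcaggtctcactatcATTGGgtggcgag
B2m (2:122147540-122147646, plus strand): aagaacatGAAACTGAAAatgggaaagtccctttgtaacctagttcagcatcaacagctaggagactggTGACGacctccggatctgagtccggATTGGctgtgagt
H2-Aa (17:34287859-34287905, minus strand): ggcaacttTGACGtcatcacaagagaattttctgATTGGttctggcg
H2-Eb1 (17:34305773-34305820, plus strand): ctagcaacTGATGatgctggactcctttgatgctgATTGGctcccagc

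The X2 and Y arrangement stood once in each of these 5 promoters and in 0.819% of all 32851 promoters of the table. Each promoter was searched on both strands over the 250 bases before its annotated start. The spacer was 20 bases in H2-K1, H2-D1 and B2m, 21 in H2-Aa and 22 in H2-Eb1. The windows of H2-K1 and H2-D1 also held GGGATTCCC, present in 0.301% of promoters, and GAANNGAAA on the opposite strand, present in 6.31%. B2m held the longer GAAANNGAAA, present in 2.98%. Within those 250 bases Tap1 and Tapbp held none of these and only ATTGG alone, which 33.8% of promoters hold and which lies within the arrangement above. Sequence outside them was not searched. The motifs were picked after these sequences had been seen, so the counts are a description, and a match is not a site that was shown to be bound.

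The 6 samples held 50471116 to 66068108 counts each, and members took 0.107% to 0.134% of them. The lowest member, H2-Aa, had 76 to 140 counts a sample, and B2m had 22244 to 31134. Levels are given as CPM, counts scaled to a common library size by the TMM method. A gene was called changed at an adjusted p under 0.05 and a fold change over 1.5 by edgeR's quasi-likelihood test with Benjamini-Hochberg adjustment over all tested genes, and passing the p alone is stated as such. By that call 8.84% of all tested genes changed. By the adjusted p alone, 12.9% were higher and 16.1% were lower after neomycin. These are 2058 and 2571 genes, a split that moved to 1349 and 3200 when libraries were scaled by total counts alone. HC markers fell for 12 of 14, with a summed level of 826 to 941 CPM in control and 286 to 355 CPM after neomycin. In a bulk sample, fewer cells of a type and less RNA per cell cannot be told apart. The labels do not say that the pools came from separate litters, so p-values measure the spread between these pools.

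None of the 10 members was called changed 5 days after neomycin. Of the 10, 1 passed the adjusted p alone, the transporter gene Tap2, at 137% of control. Class I members lay between 106% and 137% of control and class II members between 80.9% and 130%. At an unadjusted p under 0.05, 2 members passed by edgeR (Tap2 higher, Cd74 lower), 3 by DESeq2 and 2 by limma-voom, and these tools too called 0 members. Control and neomycin values did not overlap for 2 of 10 members, against 43.5% of all tested genes. The median log2 fold change was 0.14 over the members and -0.004 over all tested genes, and the median of its size was 0.22 over both. With the trend of each sample's counts on exon length removed, the median of the members was 0.03. Thus neither the number of members that moved nor the size of their changes stood above the rest of the table.

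**Figure D1:**
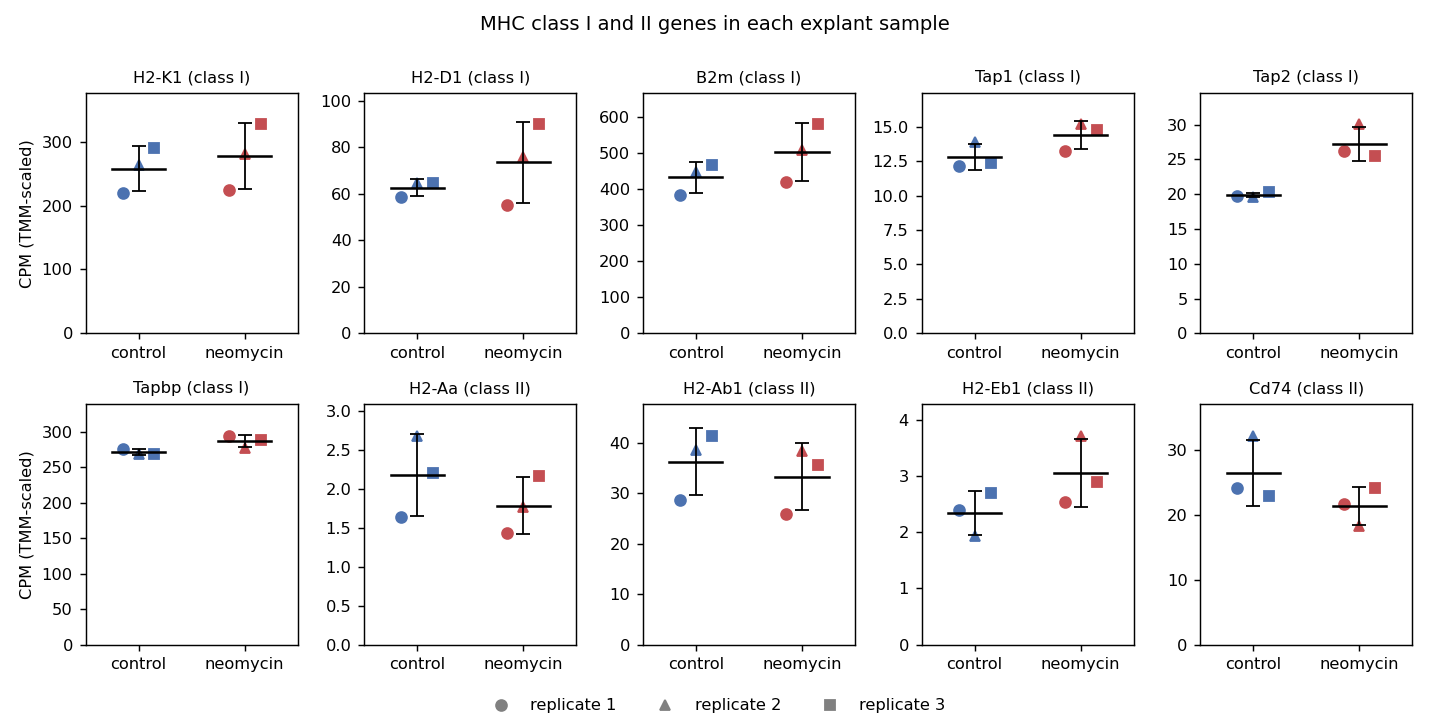
Levels of the 10 members in each sample, in TMM-scaled CPM on axes that start at 0. Symbols are replicates, bars are group means and error bars are SDs (n = 3). Tap2 and Tapbp are the panels in which control and neomycin samples do not overlap, both higher after neomycin.

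Among the chains of class I molecules themselves, no difference passed the test. H2-K1, a classical heavy chain, stood at 220, 263 and 290 CPM in control and at 225, 281 and 327 CPM after neomycin. The groups overlapped almost fully, with the highest value in neomycin replicate 3 and the lowest in control replicate 1. The mean was 258 ± 35.3 CPM (SD, n = 3) in control and 278 ± 51.1 CPM (SD, n = 3) after neomycin, a log2 fold change of 0.11 (SE 0.13, adjusted p = 0.566 by edgeR). Its 95% interval ran from 88.7% to 131% of control. For H2-K1 the log2 fold change was 0.01 without control replicate 1, 0.21 without control replicate 3, 0.24 without neomycin replicate 1 and -0.03 without neomycin replicate 3, and 0.02 with the length trend removed.

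H2-D1 was the other classical heavy chain among the members. It stood at 58.5, 64.6 and 64.6 CPM in control and at 54.9, 75.7 and 89.8 CPM after neomycin. Neomycin samples lay on both sides of the control samples, and they spread 1.63-fold among themselves against 1.11-fold in control. The log2 fold change was 0.23 (SE 0.13, adjusted p = 0.214 by edgeR). Without neomycin replicate 1, the lowest of the 6, the log2 fold change of H2-D1 was 0.40 and passed the adjusted p (0.00701 by edgeR). Without neomycin replicate 3, the highest, it was 0.06 (adjusted p = 0.747 by edgeR), and with the length trend removed 0.11 (adjusted p = 0.549 by edgeR).

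B2m, the light chain that every class I molecule needs, was the member with the most reads. It stood at 384, 446 and 468 CPM in control and at 419, 508 and 580 CPM after neomycin. Neomycin replicate 1 lay within the control values and the other two above them. The log2 fold change was 0.21 (SE 0.12, adjusted p = 0.183 by edgeR), and 0.33 (adjusted p = 0.0354 by edgeR) without neomycin replicate 1. Without neomycin replicate 3 it was 0.10 (adjusted p = 0.589 by edgeR), and without control replicate 1 it was 0.14. B2m has short exons (860 bases in all), and when the length trend was removed its log2 fold change turned to -0.14 (adjusted p = 0.205 by edgeR). The direction of B2m thus depended on whether the length trend was kept.

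In both groups the heavy chains and B2m were lowest in the library of replicate 1 and highest in that of replicate 3. Per sample, the ratio of H2-K1 to B2m was 0.573, 0.590 and 0.620 in control and 0.538, 0.552 and 0.565 after neomycin. This ratio was lower in 3 of 3 neomycin samples than in any control sample (exact two-sided permutation p = 0.1, the smallest that 3 against 3 allow; adjusted p = 0.267 over 8 ratios). H2-K1 has 2938 exon bases and B2m 860, and their ratio was not recomputed with the length trend removed. In that fit the log2 fold change was 0.02 for H2-K1 and -0.14 for B2m, the reverse of the order behind the lower ratio. The ratio of H2-D1 to H2-K1 overlapped between the groups (0.245 ± 0.0215 and 0.263 ± 0.0164, SD, n = 3).

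Among Tap1, Tap2 and Tapbp of the peptide-loading complex, Tap2 alone passed the adjusted p. Tap2, which forms one side of the peptide transporter, stood at 19.8, 19.6 and 20.3 CPM in control and at 26.2, 30.03 and 25.5 CPM after neomycin. All neomycin samples lay above all control samples, and the control samples differed from each other by only 1.03-fold. Tap2 rose by a log2 fold change of 0.45 (SE 0.09, adjusted p = 0.00345 by edgeR), to 137% of control with a 95% interval from 120% to 157%. The rise stayed under the 1.5-fold threshold. Exons of Tap2 share 533 bases with Gm15821 and 165 with Gm20496 on the opposite strand, and the strand setting of the counting was not given in the sources used here, so some of its reads may belong to them.

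Tap1, the partner of Tap2 in the transporter, stood at 12.2, 13.9 and 12.4 CPM in control and at 13.3, 15.2 and 14.8 CPM after neomycin. One control sample lay within the neomycin values. Its log2 fold change was 0.17 (SE 0.11, adjusted p = 0.246 by edgeR), with an interval from 96.0% to 132% of control. The ratio of Tap2 to Tap1 was 1.56 ± 0.126 in control and 1.89 ± 0.146 after neomycin (SD, n = 3), higher in 3 of 3 neomycin samples (exact two-sided permutation p = 0.1, the smallest possible; adjusted p = 0.267 over 8 ratios).

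Tapbp (tapasin) stood at 276, 269 and 270 CPM in control and at 295, 278 and 289 CPM after neomycin. It was the steadiest member, with a 1.09-fold spread over all 6 samples. Although the groups did not overlap, the log2 fold change was only 0.08 (SE 0.07, adjusted p = 0.427 by edgeR), and the interval from 95% to 117% of control was the narrowest of the 10. Of its 75-base stretches, 18.6% also occur in transcripts of other genes, most of them of the opposite-strand Gm19412. That share was 8.27% for Tap2, 5.56% for H2-D1, 3.10% for H2-K1, 2.40% for Tap1 and 0 for the other 5 members.

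**Figure D2:**
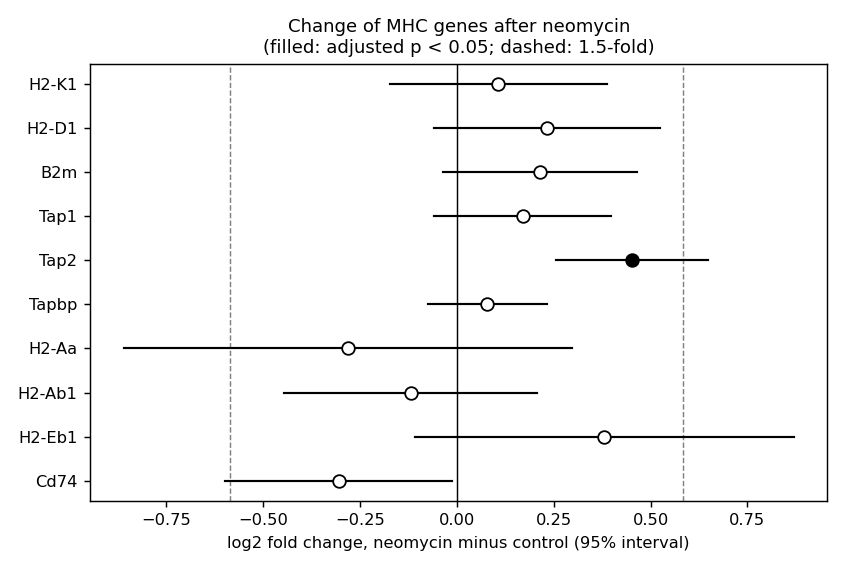
Log2 fold change of each member, neomycin minus control, with its 95% interval. Filled points passed an adjusted p under 0.05 and dashed lines mark 1.5-fold. The interval of Tap2 lies wholly above 0 and that of Cd74 wholly below 0, and all 10 points lie inside the dashed lines.

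Class II members went in both directions and none passed the adjusted p. Cd74, on chromosome 18, encodes the invariant chain that keeps the class II groove closed until the endosome. It stood at 24.1, 32.1 and 22.9 CPM in control and at 21.6, 18.3 and 24.1 CPM after neomycin. Control replicate 2 was the highest and neomycin replicate 2 the lowest, while the other four lay close together. The log2 fold change of Cd74 was -0.30 (SE 0.13, unadjusted p = 0.0423, adjusted p = 0.108 by edgeR), or 80.9% of control with an interval from 66.1% to 99.1%. Without control replicate 2 it was -0.13 (adjusted p = 0.482 by edgeR). With the length trend removed it was -0.53 and passed the adjusted p (0.0144 by edgeR).

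H2-Ab1, the class II beta chain with the most reads, stood at 28.7, 38.5 and 41.4 CPM in control and at 25.8, 38.4 and 35.6 CPM after neomycin. The groups overlapped, and replicate 1 was the lowest of each. The log2 fold change was -0.12 (SE 0.15, adjusted p = 0.586 by edgeR), and it turned to 0.03 without neomycin replicate 1 and to 0.001 without control replicate 3. It was -0.26 without control replicate 1, -0.07 without control replicate 2, -0.24 without neomycin replicate 2 and -0.24 with the length trend removed.

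H2-Aa, the alpha chain that pairs with H2-Ab1, stood far lower, at 1.64, 2.68 and 2.21 CPM in control and at 1.43, 1.76 and 2.16 CPM after neomycin. The log2 fold change was -0.28 (SE 0.27, adjusted p = 0.457 by edgeR). At this depth the interval ran from 55.1% to 123% of control, so neither a marked fall nor a moderate rise could be told from no change. It was -0.10 without control replicate 2, -0.15 without neomycin replicate 1, and -0.45 and -0.44 without control replicate 1 and neomycin replicate 3. H2-Ab1 exceeded H2-Aa 16.9 ± 2.28 times in control and 18.8 ± 2.73 times after neomycin in CPM (SD, n = 3). The chains pair with each other. How well the reads of either gene matched the mm10 assembly was not tested, as the strain was not given.

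H2-Eb1, the beta chain of the second class II molecule, stood at 2.41, 1.94 and 2.70 CPM in control and at 2.54, 3.73 and 2.90 CPM after neomycin. Neomycin replicate 2 was the highest, and the groups overlapped. The log2 fold change was 0.38 (SE 0.23, adjusted p = 0.226 by edgeR), with an interval from 92.7% to 183% of control. It was 0.21 without neomycin replicate 2 and 0.19 with the length trend removed. H2-Ea-ps, the alpha chain locus that would pair with it, was listed at 0 in all 6 samples; it is named after its value was seen.

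The levels of the members were also put in order per exon length, as CPM per kb of exon over all 6 samples. B2m led with 544 ± 80.6 CPM per kb (SD, n = 6). H2-K1 (91.2) and Tapbp (77.0) followed, with ranges that overlapped, and then H2-D1 at 26.4 CPM per kb. Cd74 (14.2) and H2-Ab1 (13.5) had overlapping ranges, followed by Tap2 (6.23), Tap1 (2.48), H2-Eb1 (1.39) and H2-Aa (0.521). All other neighbours in this order were apart in every sample. The class II chains H2-Eb1 and H2-Aa thus stood below every class I member on this scale. The order depends on the exon lengths used. These came from GENCODE M21, while the study counted reads on the UCSC mm10 annotation. In CPM without exon length, H2-Eb1 (1.94 to 3.73) and H2-Aa (1.43 to 2.68) overlapped.

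**Figure D3:**
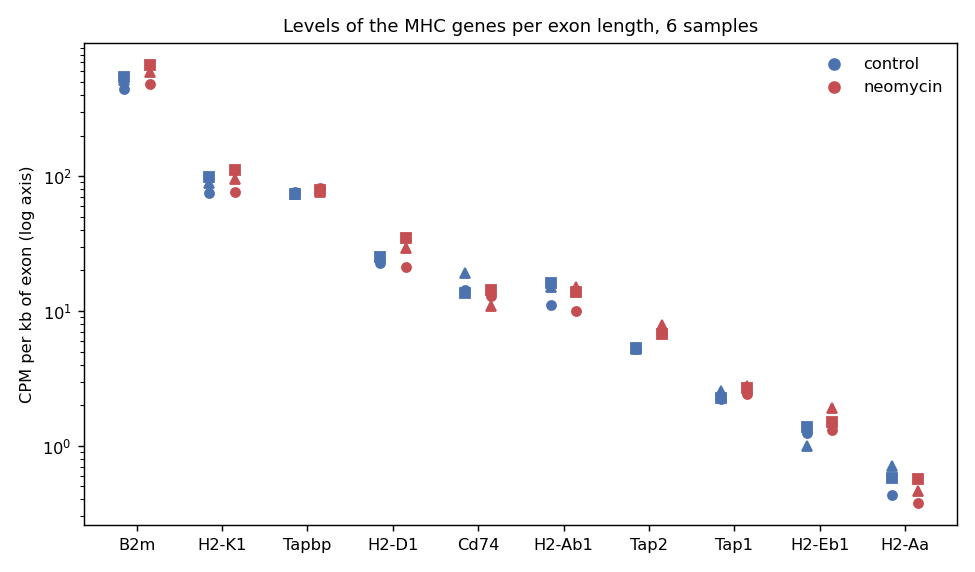
CPM per kb of exon on a log axis for the 10 members, ordered by their mean. Symbols are the replicates of control (left) and neomycin (right). From B2m at 544 to H2-Aa at 0.521 CPM per kb the levels differ far more than the groups of any member do.

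Summed over its 6 members, class I stood at 1058 ± 78.8 CPM in control and 1182 ± 146 CPM after neomycin (SD, n = 3), a log2 ratio of 0.16. Summed over its 4 members, class II stood at 67.1 ± 9.42 CPM and 59.5 ± 7.11 CPM (SD, n = 3), a log2 ratio of -0.17. Replicates of one group differed by an SD of 0.15 for class I and 0.19 for class II on the same log2 scale. Leaving out 1 library moved the class I ratio to between 0.07 (without neomycin replicate 3) and 0.25 (without neomycin replicate 1). It moved the class II ratio to -0.08 without neomycin replicate 1 or control replicate 2, and to -0.27 without control replicate 1. The ratios thus differed in sign, each by about as much as the replicates varied. The sums were not recomputed with the length trend removed. In that fit B2m, the largest part of class I, stood at -0.14 and the other class I members at 0.02 to 0.43. The sign of the class I ratio without the length trend was therefore not tested.

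By likeness over the 6 samples, the genes closest to H2-K1 among 14035 genes of at least 1 CPM were Gt(ROSA)26Sor, BC025920 and Txn1, with root mean square differences of 0.038, 0.045 and 0.048 in centred log2 CPM. Closest to Cd74 were Cenpi (0.058), Prg4 (0.066) and Zfp280c (0.072). No other MHC gene was among them.

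The other genes of the pathway were taken from 6 lists that hold 110 genes beside the members. Of these 93 were tested, 20 were higher and 5 lower by the adjusted p, and 7 were called changed, with a median log2 fold change of 0.08. These are 21.5% higher and 5.38% lower, beside 12.9% and 16.1% of all tested genes. With the length trend removed, 18 of these genes passed the adjusted p, and their split by direction was not computed.

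The counts for each list below include the members it holds. Of the genes that supply and load peptides for class I, 4 of them members, 6 of 16 tested (Tap2 among them) were higher, 2 were lower and 8 did not pass, with a median log2 fold change of 0.22. Psme2, a subunit of the PA28 activator of the proteasome, rose by 0.50 (SE 0.08, adjusted p = 0.00116 by edgeR). Psmb10, a catalytic subunit of the immunoproteasome, rose by 0.46 (SE 0.09, adjusted p = 0.00345 by edgeR), about as much as Tap2. Calr (calreticulin), a chaperone of the loading complex, rose by 0.32 (adjusted p = 0.0348 by edgeR).

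The other immunoproteasome subunits, Psmb8 and Psmb9, lie beside Tap1 and Tap2 on chromosome 17 and did not pass the test. Psmb8 stood at 6.87, 8.49 and 8.15 CPM in control and at 6.35, 9.59 and 11.6 CPM after neomycin (log2 fold change 0.23, adjusted p = 0.382 by edgeR). Psmb9 stood at 1.68, 2.17 and 1.14 CPM in control and at 2.24, 2.54 and 2.64 CPM after neomycin (log2 fold change 0.58, adjusted p = 0.121 by edgeR). All neomycin samples of Psmb9 lay above all control samples, and 212 exon bases of it overlap Tap1 on the opposite strand. Of the genes that fell, Lnpep, an aminopeptidase of endosomes that trims peptides, fell by 1.2 (adjusted p = 0.000494 by edgeR), and Tapbpl, a tapasin-related peptide editor, fell by 0.30 (adjusted p = 0.0453 by edgeR).

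Of the class I heavy chains, 2 of them members, 3 of 20 tested were higher and 0 lower, with a median of 0.06. The 3 were relatives that do not present peptides to T cells in the classical way. Cd1d1, which presents lipids, rose by 0.48 (adjusted p = 0.0117 by edgeR). Hfe, a regulator of iron uptake, rose by 0.42 (adjusted p = 0.0233 by edgeR). Fcgrt, the heavy chain of the neonatal Fc receptor, rose by 0.38 (adjusted p = 0.00466 by edgeR). All 3 pair with B2m.

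Of the class II chains and loading genes, 4 of them members, 4 of 15 tested were higher and 0 lower, with a median of 0.15. H2-DMa, a chain of the H2-DM editor that swaps the invariant chain remnant for peptide, rose by 0.38 (SE 0.09, adjusted p = 0.0068 by edgeR). Ctss (cathepsin S), which cuts the invariant chain, rose by 0.48 (adjusted p = 0.0174 by edgeR), and Ifi30, a thiol reductase of endosomes, by 0.33 (adjusted p = 0.00609 by edgeR). With the length trend removed, Ctss stood at 0.20 (adjusted p = 0.192) and Ifi30 at -0.001 (adjusted p = 0.995), both by edgeR. H2-DMb2 was called at 1.85 (adjusted p = 0.0477 by edgeR), but it had only 2 to 18 counts a sample and did not pass by DESeq2 (adjusted p = 0.0909). The ratio of H2-DMa to H2-Ab1 was 0.678 ± 0.115 in control and 0.962 ± 0.154 after neomycin (SD, n = 3) with no overlap (exact two-sided permutation p = 0.1, adjusted p = 0.267 over 8 ratios).

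Of the regulators of MHC genes, 1 of 18 tested was higher and 3 were lower, with a median of 0.06. Ciita, the master activator of class II genes, had 30 to 67 counts a sample and did not pass (log2 fold change 0.28, adjusted p = 0.654 by edgeR). Nlrc5, its counterpart for class I, had 5 to 22 counts and fell under the filter. Ifng, the gene of interferon gamma, had 3 counts in control replicate 1 and 0 in the other 5 samples, which allows up to 3 counts in each.

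Irf1, a transcription factor that interferon induces, did not pass (log2 fold change 0.07, adjusted p = 0.606 by edgeR). Rfx5, a subunit of the RFX complex that binds the X box, fell by 0.35 (adjusted p = 0.0341 by edgeR). Nfya, which binds the Y box as part of NF-Y, fell by 0.29 (adjusted p = 0.00911 by edgeR), while its partner Nfyc rose by 0.21 (adjusted p = 0.0497 by edgeR) and lost that call under total-count scaling (0.14, adjusted p = 0.168 by edgeR). Crebbp, a histone acetyltransferase that CIITA recruits, fell by 0.86 (adjusted p = 0.0042 by edgeR).

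Among interferon-stimulated genes, 7 of 25 tested were higher and 0 lower, with a median of 0.25, and 4 were called. Usp18, which removes ISG15 from proteins, stood at 2.52, 2.72 and 1.49 CPM in control and at 3.92, 5.69 and 4.73 CPM after neomycin. This is a log2 fold change of 1.09 (SE 0.24, adjusted p = 0.00602 by edgeR), with no overlap of the groups. Ifit3, an antiviral protein that binds RNA complexes, rose by 0.77 (adjusted p = 0.0146 by edgeR), and Gbp2, a guanylate-binding protein, by 0.70 (adjusted p = 0.0259 by edgeR). Iigp1 (0.43), Ifi27 (0.40) and Ifi35 (0.29) passed the adjusted p with smaller changes. Isg15, the ubiquitin-like modifier, was the other gene called (0.60, adjusted p = 0.0252 by edgeR) and is named after its value was seen.

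With the length trend removed, 3 interferon-stimulated genes were higher, and 4 genes of peptide supply and loading were higher and 2 lower. Class II genes stood at 2 higher and 2 lower, and class I heavy chains at 3 higher and 0 lower. Of the regulators, 3 were then higher and 1 lower, where 1 and 3 had been before. Over all tested genes 1665 were then higher and 2090 lower. In that fit Ifit3 (0.54, adjusted p = 0.0777), Gbp2 (0.58, adjusted p = 0.0561) and Isg15 (0.21, adjusted p = 0.434) did not pass by edgeR, and Usp18 did. With the same correction Psmb10 (0.24, adjusted p = 0.0544) and Calr (0.24, adjusted p = 0.0730) did not pass by edgeR. Nor did Rfx5 (-0.29, adjusted p = 0.057), Nfya (-0.17, adjusted p = 0.0688) and Nfyc (0.12, adjusted p = 0.199) by edgeR. The same held for H2-DMb2 (1.63, adjusted p = 0.0903), Ifi27 (0.14, adjusted p = 0.222) and Ifi35 (0.07, adjusted p = 0.461) by edgeR. Under total-count scaling Calr (adjusted p = 0.0583), Isg15 (0.0506) and H2-DMb2 (0.0555) did not pass by edgeR either.

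Leaving out 1 library at a time also ended some of these calls. Lnpep, Psme2, Psmb10, Fcgrt, H2-DMa, Ifi30, Nfya, Crebbp, Usp18 and Iigp1 passed edgeR's adjusted p in all 6 refits. Cd1d1 was lost without control replicate 2 (adjusted p = 0.055) and Ifit3 without neomycin replicate 2 (0.0895), both by edgeR. Ctss was lost in 2 of 6 refits, without control replicate 2 or neomycin replicate 2 (highest adjusted p = 0.103 by edgeR), and Ifi27 in 2, without control replicate 2 or neomycin replicate 3 (0.0667). Gbp2 was lost in 3, without control replicate 1, neomycin replicate 2 or neomycin replicate 3 (highest 0.110), and Isg15 in 3, without control replicate 3, neomycin replicate 2 or neomycin replicate 3 (0.111). Hfe (highest 0.0983), Rfx5 (0.135) and Ifi35 (0.0907) were lost in the same 4, those without control replicate 1 or 2 or neomycin replicate 2 or 3. Calr (0.163, all but control replicate 3), Tapbpl (0.198, all but neomycin replicate 3) and Nfyc (0.175, all but control replicate 3) were lost in 5, and H2-DMb2 in all 6 (0.156).

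Of 9 tested co-stimulators and checkpoint ligands, which presenting cells use beside the MHC, 0 passed the adjusted p, and the median was -0.08.

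**Figure D4:**
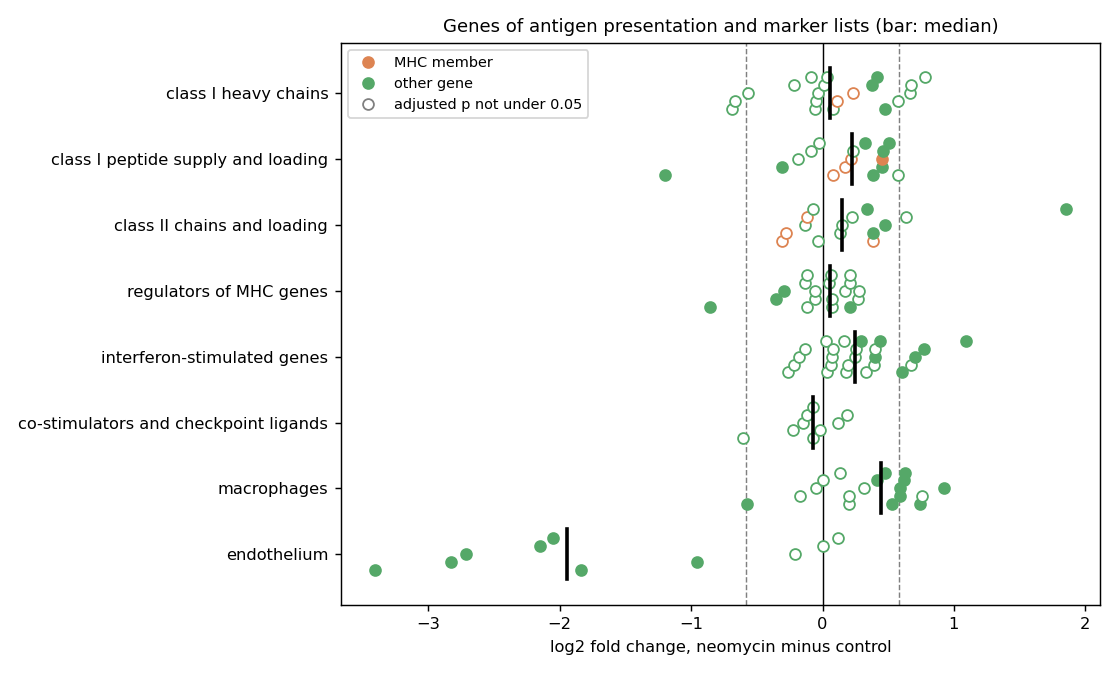
Log2 fold change, neomycin minus control, of every tested gene in the 6 antigen presentation lists and in the macrophage and endothelial marker lists. Filled points passed an adjusted p under 0.05, black bars are list medians and dashed lines mark 1.5-fold. Members (orange) lie between -0.30 (Cd74) and 0.45 (Tap2), and macrophage markers lie mostly above 0 with a median of 0.44.

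Among the markers of presenting cells, part of the macrophage list was higher in the neomycin group. Of 18 macrophage markers, 9 were higher, 1 was lower and 8 did not pass, with a median log2 fold change of 0.44, and with the length trend removed 5 were higher and 1 lower, with a median of 0.28. Their summed level was 251 to 313 CPM in control and 334 to 405 CPM after neomycin. Lyz2 (lysozyme) rose by 0.41 (adjusted p = 0.0104 by edgeR), and the complement genes C1qa, C1qb and C1qc rose by 0.59, 0.48 and 0.63. Without neomycin replicate 2 Lyz2 did not pass (adjusted p = 0.0568 by edgeR), nor did C1qb in 4 of 6 refits, those without control replicate 1 or 2 or neomycin replicate 2 or 3 (highest adjusted p = 0.137 by edgeR). With the length trend removed, Lyz2 (0.14, adjusted p = 0.192), C1qa (0.26, adjusted p = 0.0766) and C1qb (0.17, adjusted p = 0.302) did not pass by edgeR, and C1qc did (0.45, adjusted p = 0.0117). Among the markers that were not higher, Cd14 and Csf1r are named after their values were seen. Cd14 fell by 0.58 (adjusted p = 0.0223 by edgeR). This was lost in 4 of 6 refits that leave out 1 library (highest adjusted p = 0.104 by edgeR). Those were the refits without control replicate 1 or 2, or neomycin replicate 1 or 2. The growth factor receptor Csf1r stood at -0.05 (adjusted p = 0.799 by edgeR).

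Of 6 tested dendritic cell markers 1 was higher (Cd83, 0.75) and 1 was lower (Zbtb46, -0.48, lost in 5 of 6 refits that leave out 1 library, all but the one without neomycin replicate 1, and with the length trend removed), with summed levels of 14.97 to 15.8 CPM in control and 16.7 to 20.1 CPM after neomycin. Batf3 and Itgax did not pass, and Cd209a was at 0 in every sample. B cell markers summed to only 0.406 to 0.767 CPM in control and 0.433 to 0.596 CPM after neomycin, with Ms4a1 and Pax5 at 0. T and NK cell markers summed to 9.18 to 11.7 CPM and 9.26 to 12.1 CPM, most of it from Lck, and Cd3d was at 0. Endothelial markers, of cells that can carry class I and class II, were called lower for 7 of 10 (median -1.94), although the most abundant, Emcn, stood at 0.12 (adjusted p = 0.329 by edgeR) and held their sum at 312 to 354 CPM in control and 298 to 351 CPM after neomycin. The part of these cells in the levels of the members was not tested.

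The other marker lists were mixed. Neuron markers were lower for 4 of 8 and Myo6, the HC marker with the highest mean, was among those that fell. Mesenchyme markers were higher for 2 and lower for 4 of 10, supporting cell markers higher for 1 and lower for 4 of 12, and Schwann cell and glia markers higher for 1 and lower for 2 of 8.

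Class II was also set against the macrophage markers of the same sample. The ratio of summed class II to summed macrophage markers was 0.226, 0.258 and 0.221 in control and 0.154, 0.155 and 0.160 after neomycin, or 66.5% of control with no overlap. Leaving out Lyz2, the most abundant marker, it was 0.389, 0.463 and 0.394 in control and 0.275, 0.273 and 0.282 after neomycin. Single members stood at 60.8% (Cd74), 61.5% (H2-Aa), 69.0% (H2-Ab1) and 96.9% (H2-Eb1) of control, while summed class I stood at 83.7%. Ratios of 5 of 10 members were lower with no overlap, against 53.3% of all tested genes, and the median tested gene stood at 74.8% of control, as the macrophage sum itself stood at 133%. The share of members with a lower ratio was thus near the background, and the ratio was added after the levels had been seen.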

How the data were processed

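RNA of 3 control and 3 neomycin pools of cochlear explants was sequenced. Per the labels and the study's methods, the authors called bases with CASAVA 1.8, trimmed reads with Trimmomatic 0.23, aligned them to mm10 with HISAT2, counted them with HTSeq and deposited raw counts per gene symbol. The strand setting and the handling of multiply matching reads are not given in the sources used here, so overlapping and near-identical genes can have gained or lost reads. Samples were grouped by title. From the counts, edgeR 4.0.16 (R 4.3.3) gave TMM-scaled CPM, the filterByExpr filter and the quasi-likelihood test (neomycin against control, Benjamini-Hochberg). SEs are the log2 fold change over the square root of F. Alternatives were DESeq2 1.42.0, limma-voom (limma 3.58.1), other scalings and filters, the replicate block, a length correction (lowess, span 0.3) and each sample left out. Exon lengths came from GENCODE M21 on GRCm38. The code was tested on simulated data. Intervals of fold changes cover the spread between samples, and the limit of 3 counts covers counting error only. Replicates of a group differed by more than sampling noise (mean chi-square per gene 13.7 to 46.7).

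The members and lists were chosen with earlier results of these data known. Named are the members, up to 3 genes with the highest and 3 with the lowest log2 fold change among those that passed in each pathway list, 8 regulators and proteasome genes (of which 1 is not reported here), the most abundant markers, and the 3 genes most like H2-K1 and Cd74. Plots used Python 3.11.15 with matplotlib 3.10.9.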

Additional observations from a re-analysis of the deposited data

How the results depend on the processing

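The call of 0 members held under all 16 refits with other tools, scalings, filters, covariates or samples, and Tap2 kept an adjusted p under 0.05 in each (log2 fold change 0.38 to 0.50). Without the fold threshold 1 member and 4629 of all tested genes would be called. Members with an adjusted p under 0.05 numbered 2 with the replicate block (B2m added, 0.21, adjusted p = 0.0215 by edgeR), 2 with the length correction and 3 with both, where H2-Ab1 (-0.24, adjusted p = 0.0174 by edgeR) and Cd74 (-0.52, adjusted p = 0.0214 by edgeR) joined Tap2. Leaving out each sample gave 1 to 3 members, 3 without neomycin replicate 1. Called genes of the antigen presentation lists fell from 7 to 3 with the length correction and 4 with block and length correction, and ran from 3 (without neomycin replicate 2) to 8 (without neomycin replicate 1) when samples were left out. By the adjusted p alone these lists had 25 genes, and 14 (without neomycin replicate 2) to 25 when samples were left out, with 16 without control replicate 2. Over all tested genes, 2518 (without neomycin replicate 2) to 5341 genes passed the adjusted p when samples were left out, with 2567 without control replicate 2 and 3001 without neomycin replicate 3. Directions turned for H2-K1 without neomycin replicate 3 (-0.0278, in a range up to 0.2373 over the samples left out), B2m with the length correction (-0.14) and with block and length correction (-0.15), and H2-Ab1 without control replicate 3 (0.001) or neomycin replicate 1 (0.0343, in a range down to -0.2568). Why each of these values moved was not tested.

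The labels number the replicates alike in both groups. Deviations of same-numbered samples from their group means correlated at 0.17, 0.03 and 0.09, and those of differently numbered samples at -0.13 to 0.03. Control replicates 1 and 3 correlated best with the neomycin sample of their number. Control replicate 2 did so with neomycin replicate 3, by a small margin (0.0325 against 0.0264). These values do not settle whether the numbers pair the samples. With the replicate block 6014 genes passed the adjusted p and 1465 were called, against 4629 and 1413 without it. Total-count scaling moved the median of all genes to -0.07 and the log2 ratios of summed class I and II to 0.09 and -0.24. Low counts limit Ifng, Nlrc5, H2-DMb2, Ciita and, among the members, H2-Aa and H2-Eb1.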

Other observations

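The stretch of chromosome 17 that holds 8 members carries 97 further gene symbols of the table, of which 76 were tested. By edgeR's adjusted p, 16 of them were higher and 2 lower in the neomycin group. Of all tested genes 12.9% were higher and 16.1% lower. Their median log2 fold change was -0.004, against 0.19 in these neighbours. The median of the neighbours was not recomputed with the length trend removed, a step that moved that of the members from 0.14 to 0.03. Of the 76 tested neighbours 2 were called changed, beside 8.84% of all tested genes. One was the low-count H2-DMb2. The other, named after its value was seen, was Ly6g6c, a gene of the Ly6 family of surface proteins, at 0.283 CPM in control and 3.56 CPM after neomycin (log2 fold change 3.62, SE 0.37, adjusted p = 3.8e-05 by edgeR). No test of the stretch against the rest of the genome was made.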
